A study of Mus musculus with 6 samples.

Results

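The 10 genes described here encode the NF-κB transcription factors and the proteins that hold them in check, in mouse hippocampus after cerebral ischemia/reperfusion (I/R). They were chosen by name, with earlier results of these data known: the 5 subunits Nfkb1, Nfkb2, Rel, Rela and Relb, the 3 IκB inhibitors Nfkbia, Nfkbib and Nfkbie, and the regulators Bcl3 and Tnfaip3. All 10 were present among the 41386 genes of the count table, and all 10 were among the 18569 genes with enough counts to be tested. One group of 3 hippocampal libraries came from C57BL/6 mice (the strain in the labels, given as C57BL/6J in the study's methods) with the middle cerebral artery occluded for 1.5 h and reperfused for 24 h. The other 3 came from sham mice, which had the same surgery without the filament that blocks the artery. All mice were 56 days old, and no other agent or allele was given in the labels. Per the study's methods, each library pooled hippocampi from several mice, and replicate error here is that of pools rather than of single animals.

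NF-κB proteins act as pairs. In resting cells, IκB proteins hold these pairs in the cytoplasm. Cytokine and Toll-like receptors signal through adaptors to the IκB kinase complex, which marks IκB for destruction and frees the NF-κB dimers to enter the nucleus. This canonical arm uses mainly RelA, c-Rel and p50, the product of Nfkb1. The non-canonical arm runs through the kinase encoded by Map3k14 and the processing of the Nfkb2 product p100 to p52, which pairs with RelB. NF-κB raises transcription of several of its own subunits and inhibitors, which gives the pathway its feedback loops. In brain, microglia, endothelium, astrocytes, neurons and infiltrating leukocytes can all use it.

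Upstream sequences of 6 members are shown because their recognition sequences bear on that feedback. They come from the RefSeq promoter windows of GRCm38.p6, which run from 250 bases before to 50 bases after an annotated start. The stretch before the start is printed 5′ to 3′ on the strand of the gene, and capitals mark matches to the κB consensus on either strand. Nfkb2 is shown as the subunit with the largest change, Rel as a second subunit, and Nfkbia, Nfkbie and Tnfaip3 as the inhibitors with a match. Nfkbib is shown because its window had none. The window of Rela, a subunit that rose after I/R, also had none and is not shown.
Nfkb2 (chr19:46304487-46304736, plus strand): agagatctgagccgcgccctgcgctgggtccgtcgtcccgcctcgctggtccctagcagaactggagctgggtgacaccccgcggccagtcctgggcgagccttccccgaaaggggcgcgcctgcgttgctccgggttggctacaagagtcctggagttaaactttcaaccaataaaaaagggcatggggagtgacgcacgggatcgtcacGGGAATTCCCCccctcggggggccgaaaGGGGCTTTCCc
Rel (chr11:23770970-23771219, minus strand): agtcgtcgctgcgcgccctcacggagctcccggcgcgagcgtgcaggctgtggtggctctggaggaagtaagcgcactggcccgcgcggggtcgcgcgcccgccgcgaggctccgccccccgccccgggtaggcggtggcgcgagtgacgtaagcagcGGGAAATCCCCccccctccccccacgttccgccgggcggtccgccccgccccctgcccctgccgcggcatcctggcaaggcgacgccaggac
Nfkbia (chr12:55492648-55492897, minus strand): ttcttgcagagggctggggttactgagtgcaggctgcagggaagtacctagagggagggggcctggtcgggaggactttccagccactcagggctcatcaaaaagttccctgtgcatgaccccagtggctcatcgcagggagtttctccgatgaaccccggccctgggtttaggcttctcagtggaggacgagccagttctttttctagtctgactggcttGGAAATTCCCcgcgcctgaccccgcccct
Nfkbie (chr17:45555450-45555699, plus strand): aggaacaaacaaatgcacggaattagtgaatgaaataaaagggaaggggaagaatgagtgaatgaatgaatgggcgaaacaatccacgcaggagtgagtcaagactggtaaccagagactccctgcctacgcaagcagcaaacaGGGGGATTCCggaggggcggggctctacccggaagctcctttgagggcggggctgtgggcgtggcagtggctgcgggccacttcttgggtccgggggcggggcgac
Tnfaip3 (chr10:19015411-19015660, minus strand): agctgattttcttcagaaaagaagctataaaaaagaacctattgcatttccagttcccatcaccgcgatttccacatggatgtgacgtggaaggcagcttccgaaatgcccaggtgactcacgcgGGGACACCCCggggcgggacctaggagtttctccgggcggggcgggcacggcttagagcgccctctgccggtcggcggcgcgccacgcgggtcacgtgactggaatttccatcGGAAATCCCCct
Nfkbib (chr7:28766645-28766894, minus strand): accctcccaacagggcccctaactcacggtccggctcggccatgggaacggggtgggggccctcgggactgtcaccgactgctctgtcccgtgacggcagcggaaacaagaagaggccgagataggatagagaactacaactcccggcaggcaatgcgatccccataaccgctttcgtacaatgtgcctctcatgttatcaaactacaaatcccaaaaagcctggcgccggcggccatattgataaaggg

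The κB consensus matched in 8 of the 11 windows found for 8 members, against 4.51% of all 32851 promoter windows. Those 8 windows belonged to 6 members, namely Nfkb2, Rel, Nfkbia, Nfkbie, Tnfaip3 and Bcl3. In Bcl3 the match lay just after the start. One match was counted in a pair of Nfkb2 windows that overlap each other. The windows of Rela and Nfkbib and window 2 of Tnfaip3 had no match, which says only that these letters are not in those windows. The AP-1 motif TGANTCA, searched on both strands, was found in 3 of the 11 windows (Nfkb2, Nfkbie and Tnfaip3), against 7.81% of all windows. The STAT motif TTCNNNGAA was found in 1 of the 11 windows (Nfkb2), against 8.30% of all windows, so it was about as common as elsewhere. No window was given for Nfkb1 and Relb. These matches describe letters and do not show binding.

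**Figure D1:**
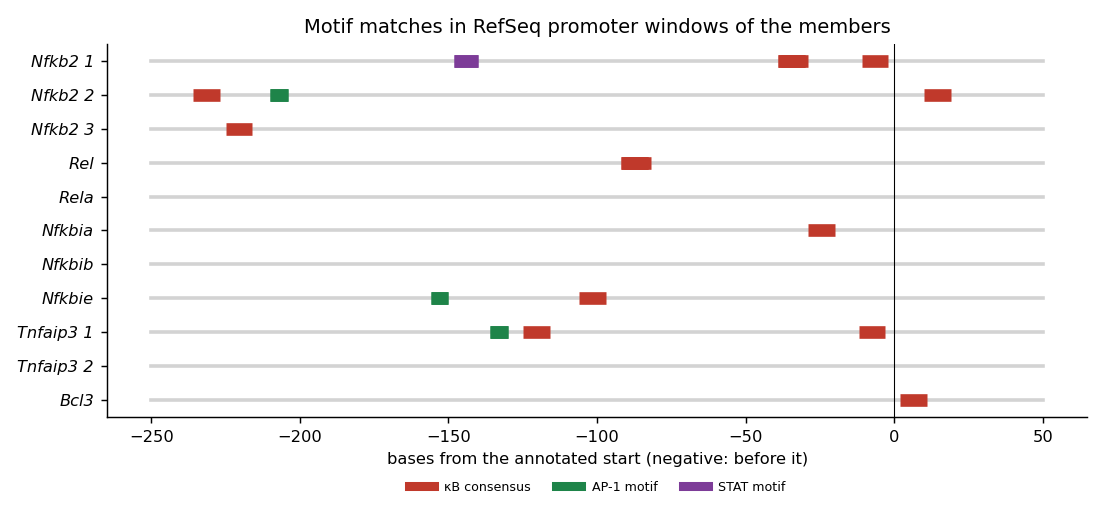
Positions of motif matches in the 11 RefSeq promoter windows of 8 members, in bases from the annotated start (x axis). Each grey line is a window and each coloured block a match. κB matches (red) lie in 8 windows, and the lines of Rela, Nfkbib and Tnfaip3 window 2 carry none.

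Of the 10 members, 9 were upregulated after cerebral I/R and 0 were downregulated. A gene was called changed at a Benjamini-Hochberg adjusted p under 0.05 in edgeR's quasi-likelihood test and a fold change over 1.2, and 21.8% of all tested genes were called higher by this rule. Changes ran from Bcl3, 25.3-fold higher, to Nfkbib, which did not pass. The median log2 fold change was 0.93 over the 10 members and 0.03 over all tested genes. For each of the 10 genes, the lowest I/R library exceeded the highest sham library. That pattern held in 29.3% of tested genes, and the groups were separate in either direction in 57.4%. An exact two-sided permutation test on 3 libraries against 3 cannot give a p under 0.1, and each member reached that value. A stricter rule of over 2-fold kept 3 members, Bcl3, Nfkb2 and Rela, against 10.2% of tested genes called higher by it.

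CPM is the read count relative to the library total after TMM scaling, a factor that evens out composition between libraries. By CPM, I/R replicate 1 was the highest I/R library for all 10 members. It exceeded the mean of the other two by 1.13-fold for Nfkbib to 2.18-fold for Nfkb2. It was also the highest I/R library in 73.1% of all genes called higher, and in 41.8% of tested genes. Without it, 8 members were still called, beside 7976 of all 18739 genes tested in that fit. The log2 fold changes were then 0.88 for Rela, 0.85 for Rel, 0.85 for Nfkbia, 0.68 for Nfkb1 and 0.66 for Relb.

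**Figure D2:**
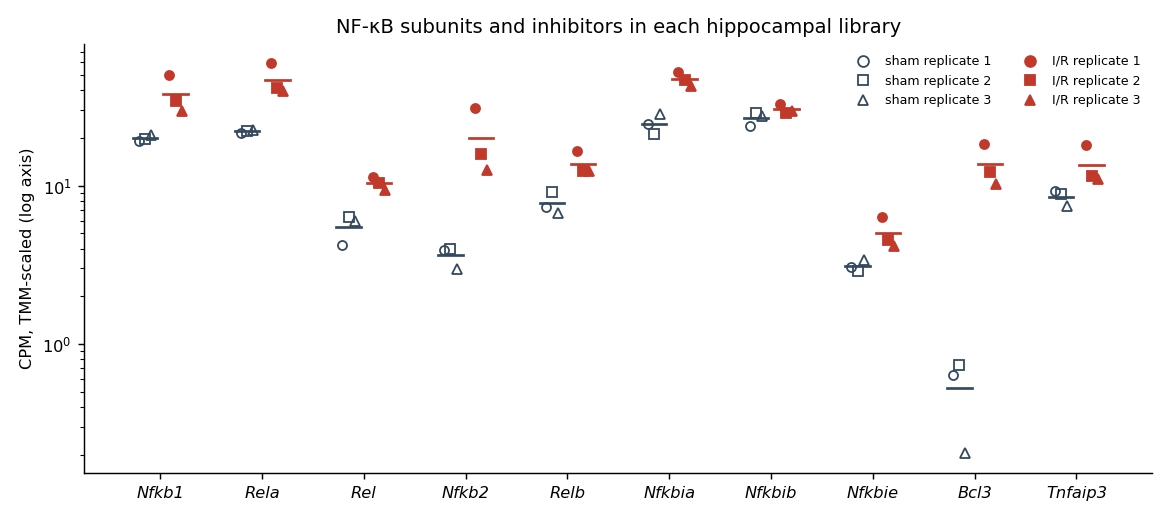
CPM (TMM-scaled, log axis) of the 10 members in each library, with open symbols for sham, filled symbols for I/R and lines for group means. I/R replicate 1 (filled circles) is the highest point of every gene, and Bcl3 shows the widest gap between the groups.

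Rela encodes p65, the main activating subunit of the canonical arm. It measured 59.1, 41.7 and 39.5 CPM in I/R replicates 1 to 3, against 21.4, 22.1 and 22.6 CPM in sham. The groups were far apart, and the sham libraries were nearly level. The log2 fold change was 1.08 (SE 0.16, edgeR adjusted p = 0.00176). Nfkb1, whose product p105 is cut to the DNA-binding partner p50, measured 49.9, 34.2 and 29.8 CPM in I/R, compared with 19.1, 19.6 and 21.0 CPM in the sham libraries. The lowest I/R library was still well above the highest sham library, and the log2 fold change was 0.93 (SE 0.18, edgeR adjusted p = 0.00563). Rel encodes c-Rel, best known from lymphoid and myeloid cells, and had the lowest CPM of the 3 canonical subunits. It measured 11.4, 10.4 and 9.40 CPM in I/R and 4.20, 6.30 and 5.96 CPM in sham. The I/R libraries were close together, and sham replicate 1 was low. The log2 fold change was 0.92 (SE 0.19, edgeR adjusted p = 0.00647).

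The non-canonical subunits differed from each other in size of change. Nfkb2 measured 31.1, 15.9 and 12.6 CPM in I/R and 3.94, 3.96 and 2.97 CPM in sham. Every I/R library was more than 3 times every sham library, and I/R replicate 1 stood well above the rest. The log2 fold change was 2.45 (SE 0.34, edgeR adjusted p = 0.00151), or 5.48-fold, and 1.97 without I/R replicate 1. The Nfkb2 row overlaps Psd on the opposite strand, which fell (log2 fold change -1.59, edgeR adjusted p = 0.00378). The strand setting of the counting was not stated, so reads of overlapping genes cannot be told apart. Relb, the usual partner of p52, measured 16.5, 12.3 and 12.3 CPM in I/R and 7.35, 9.18 and 6.71 CPM in sham. The groups did not overlap, and the log2 fold change was 0.82 (SE 0.18, edgeR adjusted p = 0.00868).

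The 3 IκB genes moved unequally. Nfkbia encodes IκBα, the classic fast feedback inhibitor. It measured 52.6, 46.3 and 42.4 CPM in I/R and 24.4, 21.1 and 28.3 CPM in sham. The gap between the groups was wider than the range within either, and the log2 fold change was 0.94 (SE 0.13, edgeR adjusted p = 0.00167). Nfkbie, encoding IκBε, was the member with the fewest counts in I/R, at 6.35, 4.53 and 4.18 CPM against 3.07, 2.88 and 3.37 CPM in sham. It was called, and its log2 fold change was 0.69 (SE 0.22, edgeR adjusted p = 0.0348). This call was lost on leaving out any 1 library except I/R replicate 3, with adjusted p up to 0.115. Nfkbib, encoding IκBβ, measured 33.0, 29.0 and 29.5 CPM in I/R and 23.8, 28.6 and 27.4 CPM in sham. The lowest I/R and highest sham libraries nearly touched. Its log2 fold change was 0.20 (SE 0.11, edgeR adjusted p = 0.179) and did not pass, which does not show that its level was the same. Its row overlaps Sirt2 and Ccer2 on the opposite strand.

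Bcl3 and Tnfaip3 act at different points. Bcl3 encodes an atypical IκB protein of the nucleus that binds p50 and p52 dimers and can help them activate transcription. It had 831, 490 and 412 counts after I/R against 25, 30 and 7 for sham, or 18.3, 12.3 and 10.3 CPM against 0.640, 0.738 and 0.203 CPM. It was nearly silent in sham and at the CPM level of Relb and Tnfaip3 in I/R. With 7 counts in sham replicate 3, it was tested only through its I/R counts, so a call of lower was hardly possible. The log2 fold change was 4.66 (SE 0.42, edgeR adjusted p = 0.000375), the 148th highest of all tested genes, and 4.38 without I/R replicate 1. Gm16174 overlaps it on the opposite strand and also rose, but had 47, 28 and 41 counts in I/R against 0, 4 and 1 in sham, far below those of Bcl3. Tnfaip3 encodes A20, a ubiquitin-editing enzyme that shuts off signaling upstream of the kinases. It measured 18.1, 11.5 and 11.1 CPM in I/R and 9.22, 8.83 and 7.47 CPM in sham. The groups did not overlap, with I/R replicate 1 well above the others. The log2 fold change was 0.67 (SE 0.21, edgeR adjusted p = 0.0344), and 0.41 without I/R replicate 1. Its call was lost on leaving out any 1 sham library, with adjusted p up to 0.121.

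**Figure D3:**
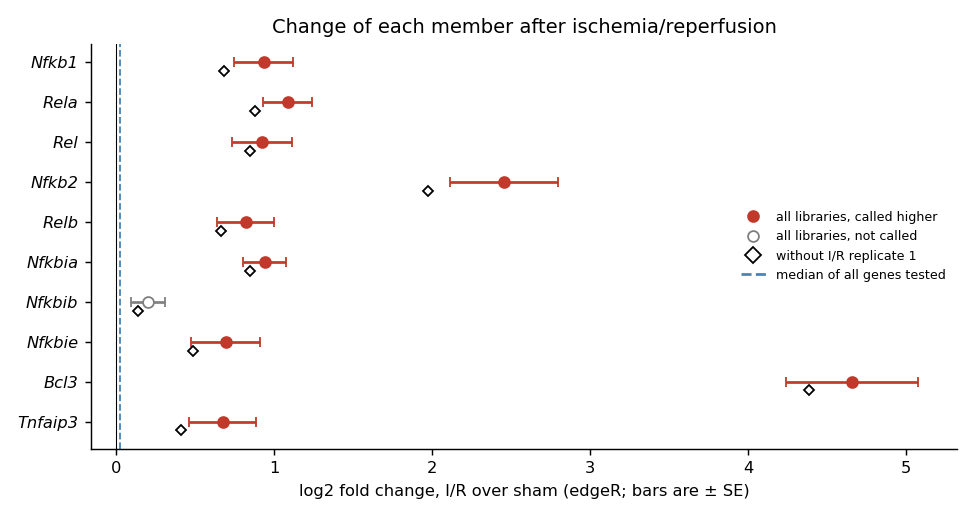
Log2 fold change of I/R over sham for each member (circles, bars ± SE, edgeR), with the value without I/R replicate 1 (diamonds) and the median of all tested genes (dashed line, 0.03). Bcl3 (4.66) and Nfkb2 (2.45) lie apart from the other 8 members, which lie between 0.20 and 1.08.

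The genes whose pattern over the 6 libraries was most like that of Bcl3 were Klk9, Milr1 and Socs3, out of 15425 genes compared. Likeness was the root mean square difference of log2 CPM after centring each gene on its sham mean, and it was 0.17 for Klk9, 0.31 for Milr1 and 0.40 for Socs3. Socs3, an inhibitor of cytokine signaling, measured 154, 93.0 and 77.1 CPM in I/R and 3.97, 3.15 and 1.83 CPM in sham. In the BALB/cJ coordinates of the table, Bcl3 lies at chr7:17667364-17681628 and Relb at chr7:17461588-17485465, both on the minus strand and 181899 bases apart. Nfkb2 lies at chr19:43780476-43787738 on the plus strand. Of the 20 tested genes that flank the members on either side, 8 were called higher, 3 lower and 9 not called, beside 21.8% higher and 19.9% lower over all tested genes. Another gene of the table overlaps 4 members, namely Nfkb2, Nfkbib, Bcl3 and Nfkb1, the last with an unnamed gene on its own strand.

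Comparing levels between genes needs a value per length, for which the deposited FPKM was used. In sham, the IκB genes Nfkbib (18.8 ± 1.65 FPKM, SD, n = 3) and Nfkbia (16.1 ± 2.45 FPKM) were highest, and their ranges overlapped. Rela (7.43 ± 0.19 FPKM) and Nfkb1 (6.78 ± 0.35 FPKM) followed without overlap. Rel (0.672 ± 0.135 FPKM) and Bcl3 (0.639 ± 0.343 FPKM) were lowest, and these also overlapped. In I/R, Nfkbia led at 37.0 ± 5.75 FPKM. Bcl3 rose to rank 3 at 19.9 ± 7.05 FPKM, overlapping Nfkbib above it and Rela below it. The length implied by the FPKM differed by over 1% from the length column for 6 members, Bcl3 among them (754 against 1850 bases). With the length column, Nfkbia was above Nfkbib in sham without overlap, Rela also passed Nfkbib in I/R with overlapping ranges, Bcl3 had rank 5 in I/R, and it stayed last in sham.

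The mix of subunits shifted toward Nfkb2. Its share of the 5 subunits' summed FPKM was 16.8%, 12.7% and 11.1% in the I/R libraries and 6.26%, 5.83% and 4.54% in sham. The share of Nfkb1 fell, from 35.0% ± 1.93 in sham to 30.8% ± 0.68 in I/R (SD, n = 3). Neither pair of groups overlapped, and each reached the smallest exact permutation p of 0.1. Shares are relative, so a gain of Nfkb2 lowers the others and these are not 2 separate results. The level of Nfkb1 itself rose (log2 fold change 0.93). The shares of Rela, Rel and Relb overlapped between the groups.

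A total of 4 ratios was compared within libraries. The Nfkb2 to Nfkb1 ratio was 0.542, 0.405 and 0.368 after I/R, against 0.180, 0.176 and 0.123 for sham libraries, a log2 difference of 1.46 (exact permutation p = 0.1, 0.2 after Benjamini-Hochberg adjustment over the 4 ratios). The groups did not overlap. The 3 IκB genes summed over the 5 subunits gave 1.10, 1.42 and 1.49 after I/R against 1.83, 1.75 and 2.03 for sham, and inhibitor transcripts were lower relative to subunits in each I/R library. That log2 difference was -0.49 (exact permutation p = 0.1, adjusted 0.2). Nfkbia to Rela differed by -0.12 on the log2 scale with overlapping groups (exact permutation p = 0.5), and Relb to Rela by -0.24, also overlapping (exact permutation p = 0.2).

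**Figure D4:**
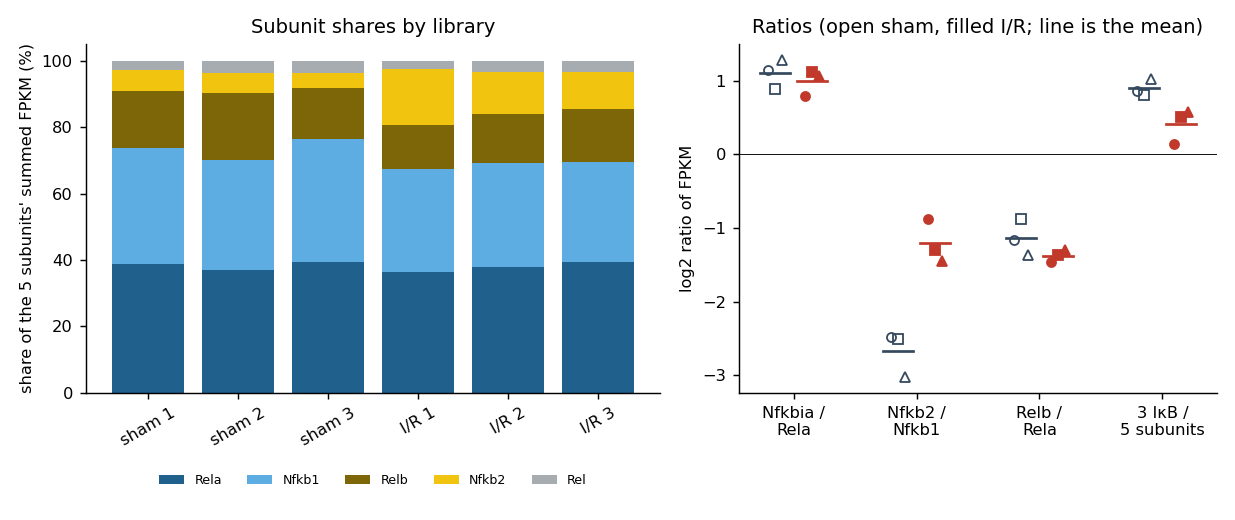
Left, share of each subunit in the summed FPKM of the 5 subunits (percent) in each library. Right, log2 ratios of FPKM per library (open sham, filled I/R, line at the mean). The Nfkb2 share is 11.1% or more in each I/R library and 6.26% or less in each sham library, and the IκB to subunit ratio is lower in I/R.

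The rest of the pathway was described with lists ordered by role. Of 110 listed genes, 97 were tested, 54 (55.7%) were called higher and 5 (5.15%) lower, with a median log2 fold change of 0.64. Over all tested genes, 21.8% were called higher and 19.9% lower, and the count of each list is to be read beside these shares. Adaptors (40.9% higher, 9.09% lower) and other inhibitors (35.3% higher, 11.8% lower) lay nearer to them than receptors (78.6% higher) and targets (80% higher). Among ligands, 4 of 9 tested were called higher and 0 lower, including the interleukin-1 genes Il1b (log2 fold change 3.86) and Il1a (1.52). Tnf (4, 1 and 0 sham counts) and Tnfsf11 (0, 1 and 1) were also called higher. All 4 called ligands were tested only through their I/R counts, so a call of lower was hardly possible. These include Il1b and also Il1a, which had 20, 14 and 6 sham counts. Il1b had 219, 39 and 66 counts after I/R against 3, 7 and 9 for sham, and I/R replicate 1 was far above the other I/R libraries. Without that library the log2 fold change of Il1b was 2.94. The Il1a call was lost on leaving out I/R replicate 2 or 3 or sham replicate 2 or 3, with edgeR adjusted p up to 0.124. Receptors had 11 of 14 higher and 0 lower, with a median log2 fold change of 2.22. Cd40 (7, 4 and 6 sham counts) and Tnfrsf13c (3, 2 and 4), both called higher, were tested only through their I/R counts. This tilts the receptor count and median upward. Tnfrsf12a, the TWEAK receptor that feeds the non-canonical arm, rose by 4.37 on the log2 scale, Tlr2 by 3.23, and Tnfrsf1a, the main TNF receptor, by 2.84.

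Adaptors had 9 of 22 higher and 2 lower, led by Myd88 (log2 fold change 2.05), Birc3 (2.03) and Ripk1 (1.90). Myd88 links Toll-like and interleukin-1 receptors to the kinases, whereas Birc3 and Ripk1 act below TNF receptors. Kinases had 4 of 10 higher and 0 lower. The IκB kinase complex itself was split: the catalytic subunit Chuk (IKKα) rose, and its log2 fold change was 0.998 (SE 0.12, edgeR adjusted p = 0.00091). The other catalytic subunit Ikbkb (IKKβ) gave 0.12 (SE 0.12, edgeR adjusted p = 0.475) and the scaffold Ikbkg (NEMO) -0.03 (SE 0.09, edgeR adjusted p = 0.830), and the sign of both turned in some settings. Of the upstream kinases, Map3k8 (1.80), Ikbke (1.64) and Map3k14 (1.61), which encodes the NF-κB-inducing kinase of the non-canonical arm, were called higher. Map3k8 and Map3k14 were called in all 17 alternative fits and Ikbke in 9 of 17. Ikbke had 327, 66 and 103 counts after I/R against 52, 41 and 46 for sham, and its log2 fold change was 0.78 without I/R replicate 1, where the call was lost (edgeR adjusted p = 0.0671). Its call was also lost on leaving out any 1 sham library, with adjusted p up to 0.129.

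Other inhibitors had 6 of 17 higher and 2 lower, with Irak3 (log2 fold change 2.27), the RNase gene Zc3h12a (1.94) and the atypical IκB gene Nfkbid (1.14) among those that rose. Known targets had 20 of 25 higher and 1 lower, with a median log2 fold change of 2.73. Some, such as Il6 (1, 0 and 0 sham counts), Cxcl2 (0, 0 and 0) and Saa3 (0, 1 and 1), were tested only through their I/R counts. For such genes a call of lower was hardly possible, which tilts the count and the median upward. With at least 10 counts required in every library, 43 genes of all the pathway lists were called higher and 3 lower. Of all 16421 genes tested in that fit, 3750 were called higher and 3497 lower. How many pathway genes that fit tested was not counted. The chemokine genes Cxcl1 (6.56) and Cxcl10 (5.59) and Lcn2 (4.88), which encodes lipocalin-2, led the targets with 3 or more counts in every library. That floor does not remove the limit: Cxcl1 and Cxcl10 (11, 5 and 4 sham counts) were also tested only through their I/R counts. Cxcl1 had 1490, 808 and 402 counts after I/R against 17, 3 and 5 for sham, without overlap, and its log2 fold change was 7.57 without sham replicate 1. Lcn2 had 7644, 3099 and 2053 counts after I/R against 318, 60 and 12 for sham. Its log2 fold change was 6.70 without sham replicate 1 and 4.25 without I/R replicate 1, where the call was lost (edgeR adjusted p = 0.0706). The 5 genes called lower, named after their values were seen and 3 in number on leaving out any 1 sham library, were Cyld (-0.93), Traf3 (-0.54), Nlrx1 (-0.48), Rbck1 (-0.37) and Sod2 (-0.29). Cyld and Traf3 were called in all 17 alternative fits, Rbck1 in 14, Nlrx1 in 5 and Sod2 in 4. Cyld encodes a deubiquitinase that restrains NF-κB, and TRAF3 holds the Map3k14 product at low levels.

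**Figure D5:**
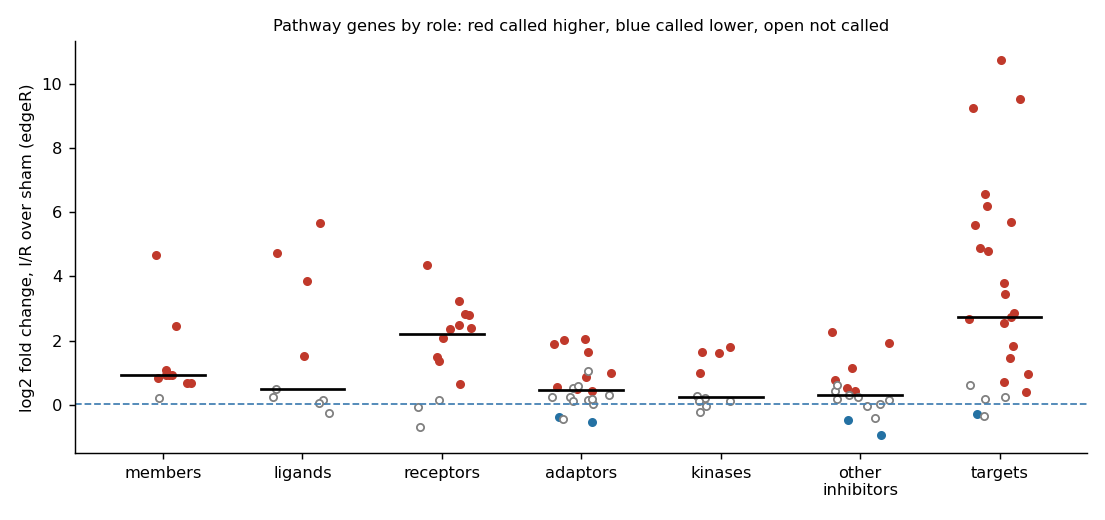
Log2 fold change (edgeR) of the members and of each pathway list by role, with red for genes called higher, blue for lower, open for not called, black lines at list medians and a dashed line at the median of all tested genes. Receptors (median 2.22) and targets (2.73) lie highest, and kinases (0.23) lie nearest the dashed line.

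Cell type markers moved between the groups, and fewer cells of a type and less RNA per cell cannot be told apart in bulk tissue. The counts below stand beside 21.8% called higher and 19.9% called lower over all tested genes. The hippocampal identity markers were present in every library, but 7 of 8 were called lower, with a summed level of 214 to 480 CPM in I/R and 934 to 973 CPM in sham. Of 8 neuronal markers, 7 were lower (2589 to 5847 against 12592 to 12841 CPM). Monocyte and macrophage markers were higher in 4 of 5 tested, at 113 to 238 against 30.3 to 34.9 CPM. Most of the I/R sum came from Cd14 (mean 111 CPM in I/R, 3.16 in sham) and Vcan (39.9 and 28.9 CPM). Ccr2 (1.52 and 0.152 CPM) and Chil3 (3.67 and 0.0574 CPM) added little, and Plac8 and F10 were below the count filter. Ccr2 and Chil3 were tested only through their I/R counts, so a call of lower was hardly possible. Neutrophil markers were higher in 3 of 4 tested, at 9.61 to 39.9 against 4.10 to 5.63 CPM, although the defining marker Ly6g had 1 count in I/R and 0 in sham. The 3 called, S100a8, S100a9 and Retnlg, were likewise tested only through their I/R counts. Csf3r, well counted in sham (162, 146 and 134 counts), was not called, and 4 of the 8 listed markers were below the count filter. Endothelial markers were higher in 7 of 8 and lower in 1, at 387 to 618 against 271 to 295 CPM. Microglial markers had 3 higher and 3 lower, at 258 to 350 against 255 to 289 CPM. Astrocyte markers had 2 higher and 5 lower of 8, with Gfap, the intermediate filament gene of reactive astrocytes, at a log2 fold change of 2.31 and the glutamate transporter gene Slc1a2 at -0.96. Their sum was 4952 to 5275 against 5418 to 5725 CPM. Oligodendrocyte markers had 1 higher and 3 lower of 8. I/R replicate 1, highest for every member, was also highest for the monocyte, neutrophil, endothelial and microglial sums and lowest for the neuronal one. The part of these shifts in the members' values was not tested.

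Choroid plexus markers were low in I/R replicate 3 and sham replicate 1 (41.1 and 41.4 CPM) and between 1609 and 4470 CPM in the other 4 libraries. With their level as a covariate, 9 members were called, as without it, beside 7306 of all 18569 tested genes. Total counts per library ran from 37493042 to 44788547.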

How the data were processed

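Hippocampal RNA-seq of 3 I/R and 3 sham libraries was used, grouped by sample titles. Per the study's methods, the authors aligned reads with TopHat2 and counted them per gene with HTSeq; the submitters' processing notes name Bowtie 0.12.2 and mm8. The deposited counts carry BALB/cJ gene identifiers, although the mice were C57BL/6 per the labels (C57BL/6J in the study's methods). The deposited FPKM are counts scaled by the authors to gene length and library total. The authors' own comparison columns (fold changes and p-values) were not used. Of the table, 4 split lines were rejoined.

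The test of I/R against sham used edgeR 4.0.16 under R 4.3.3 (filterByExpr, TMM, robust glmQLFit, glmQLFTest, no covariate) over all 18569 genes kept. DESeq2 1.42.0 and limma 3.58.1 were alternatives. Ratios and shares used FPKM with exact two-sided permutation tests. P-values measure the spread between these pooled libraries. Members and lists were chosen with earlier results of these data known. Named pathway genes were the 3 with the largest change per list among those called and at 3 or more counts in every library, plus Chuk, Ikbkb, Ikbkg and Map3k14. Of the listed pathway genes, 5 were not analysed here.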

Additional observations from a re-analysis of the deposited data

How the results depend on the processing

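Bcl3, Nfkb2, Rela, Nfkbia, Nfkb1, Rel and Relb were called in every alternative fit that tested them. Bcl3 was not tested when 10 counts were required in every library. A rule of over 2-fold left 3 members and 2760 genes called. Leaving out 1 library gave 7 to 9 members called, beside 5330 to 7976 of all tested genes. Nfkbib was called with library size only (log2 fold change 0.46) and on both FPKM scales. Without TMM the median of all tested genes was 0.28, and the calls split into 6334 higher and 2027 lower, against 4054 and 3702 with it; all 10 members were then higher. Pathway genes called lower ranged from 0 with the 2-fold rule to 7 without I/R replicate 1, and were 3 without any 1 sham library. Ikbkb turned to -0.023 without I/R replicate 1, and ranged up to 0.20 on leaving out 1 library. Ikbkg turned to 0.22 with library size only and with FPKM + 1, 0.23 with FPKM + 0.1, 0.0090 without I/R replicate 1 and 0.013 without sham replicate 1, with a low of -0.11 on leaving out 1 library. The cause was not tested. With the replicate number as a block, 6332 genes were called, and Nfkbie and the ligand gene Il1a were lost. Same-numbered I/R and sham libraries had correlations of -0.10, 0.06 and -0.18 between their deviations from the group means (log2 CPM). The labels give them no shared batch, and 3 libraries per group are too few to show whether they had one.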
